A study of Homo sapiens with 6 samples.

Results

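The comparison of PK-1 cells treated with RARγi-1 against PK-1 control cells rested on 1 library per side. PK-1 is an established human cell line of pancreatic ductal adenocarcinoma (PDAC). RARγi-1 (LY2955303) is a small molecule that blocks retinoic acid receptor γ (RARγ). The treated cells had been exposed to it for 24 h, and the other library is labelled only as control. Neither the dose used for RNA sequencing nor the vehicle of the control is stated in the sources used here. The series holds 6 libraries, 1 for each combination of a PDAC line (PK-1 or Panc-1) and a state (control, RARγi-1 or RARγi-2). Total RNA was extracted and made into strand-specific mRNA libraries. The entries described are the gene entries whose deposited value lay above the floor in the control library of PK-1, in its RARγi-1 library or in both. They number 13965 of the 15654 entries above the floor in any of the 6 libraries, and the file lists 53826 entries in all.

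The deposited value is log2 of TPM, transcript abundance corrected for length and scaled to one total in every library, and 0 on that scale stands for 1 TPM or less and is called the floor. Each level below is a TPM value. Each log2 ratio is log2 of (TPM + 1) in the RARγi-1 library over (TPM + 1) in the control library, a scale that understates the change of low entries. "Rose" and "fell" are used for entries past 2-fold on that scale. Neither side was replicated, and therefore no p-value and no replicate error can be attached to any ratio. TPM keeps no read depth, which leaves the counting error unknown. As a stand-in, the variation between the 2 treated PK-1 libraries, of RARγi-1 and of RARγi-2, was measured, which also holds real differences between the compounds. It gave a spread of 0.397 (log2) for a ratio of 2 libraries over the 10571 entries with a mean above 5 TPM. The RARγi-2 library was assigned by its title, whereas its treatment label reads RARγi-1. Several entries share sequence with near-identical copies, and the way the authors divided such reads is not given in the sources used here. The values of the AKR1C, HSPA1, MAP1LC3B, ferritin, metallothionein and histone entries are uncertain for that reason.

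Of the 13965 entries, 1292 rose (9.25%) and 692 fell (4.96%). The log2 ratios had quartiles of -0.24 and 0.54 around a median of 0.15. A ratio under 0 was found for 39.2% of the entries. Counts of ratios above or under 0 given further on are read against this share. Changes past 4-fold were seen for 181 entries that rose and 83 that fell, and changes past 8-fold for 31 and 6. In all, 816 entries were above the floor in the RARγi-1 library alone and 313 in the control library alone. Scaling the libraries to the same median ratio would lower the ratios by up to 0.12 (log2), and by less for low entries. This turns the calls into 1014 up and 838 down. The share of calls that are up is then 54.8% in place of 65.1%. Long noncoding RNAs were split unevenly between the directions: 117 of 1062 rose (11.02%) and 20 fell (1.88%), with a median ratio of 0.27, against 9.23% and 5.18% of the protein-coding entries.

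**Figure D1:**
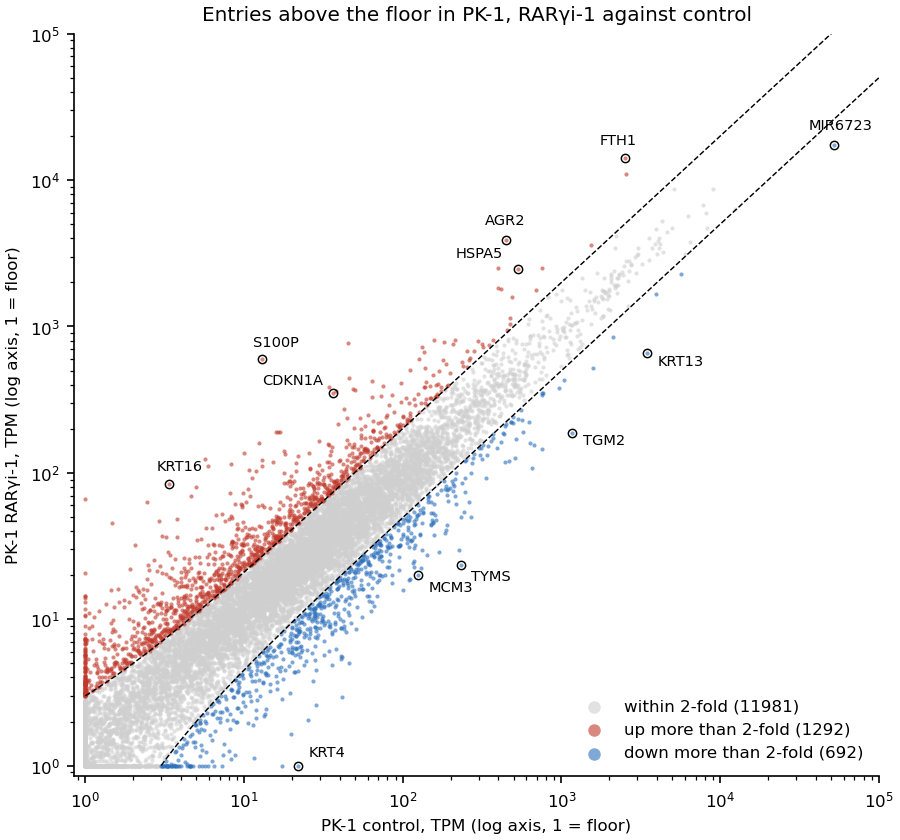
Each point is 1 of 13965 entries, with its TPM in the PK-1 control library on the horizontal axis and its TPM in the PK-1 RARγi-1 library on the vertical axis, both logarithmic. Dashed lines mark 2-fold on the scale of TPM + 1, beyond which lie the 1292 entries that rose (red) and the 692 that fell (blue); FTH1 reached 14200.3 TPM in the treated library and KRT4 reached the floor.

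The label of a ductal carcinoma line was compared with marker genes. All 8 markers of ductal epithelium (KRT7, KRT8, KRT18, KRT19, EPCAM, CDH1, MUC1 and SOX9) were above the floor in both libraries, MUC1 narrowly so at 1.02 TPM in the control and 2.48 TPM after RARγi-1. Their summed level was 22539 TPM in the control and 13534 TPM after treatment, a difference that came mostly from KRT7, KRT8 and KRT18. None of 4 endothelial and 4 islet markers was above the floor in either library. Of 7 leukocyte markers, CD68 (19.8 TPM in the control, log2 ratio 2.20) and LYZ (4.15 and 6.02 TPM) were above it, whereas PTPRC, CD3E, CD14 and ITGAM were at the floor in both. COL1A1 was the 1 fibroblast marker of 8 above the floor (3.21 and 11.5 TPM), with COL1A2, COL3A1, DCN and LUM at the floor. PRSS1 was the 1 acinar marker of 5 above the floor (1.06 and 11.1 TPM), MAP2 the 1 neural marker of 3 (1.61 and 6.64 TPM), and VIM the 1 mesenchymal marker of 3 (41.7 and 92.1 TPM).

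Retinoic acid receptors are nuclear receptors that bind DNA together with retinoid X receptors. With an agonist bound they recruit coactivators, and without one, or with an antagonist, they hold corepressors at their target genes. In squamous epithelia RARγ is the main form, and retinoids there steer the choice between keratin programmes.

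RARG itself, the gene of the targeted receptor, stood at 51.1 TPM in the control and 37.5 TPM after RARγi-1, a log2 ratio of -0.44. RARA was close to level at 33.6 and 30.5 TPM, and RARB was at the floor in both libraries. Blocking the receptor protein need not change its mRNA, so these levels do not check the treatment. Of 13 retinoid, rexinoid and related nuclear receptors above the floor, 1 rose and none fell, and none of the 13 corepressors and coactivators moved past 2-fold. Among retinoid carriers and enzymes, 0 of 14 rose and 4 fell. DHRS3, which reduces retinaldehyde to retinol and is itself induced by retinoic acid, went from 117 TPM in the control to 22.8 TPM (log2 ratio -2.30). FABP5, a fatty acid carrier that can pass retinoic acid to the nucleus, went from 516 to 170.3 TPM (log2 ratio -1.59). ALDH1A3, which makes retinoic acid from retinaldehyde, went from 627 to 224 TPM (log2 ratio -1.48). DHRS3 and ALDH1A3, which act on the 2 sides of retinaldehyde, were therefore lower in the treated library. CRABP2, the carrier that delivers retinoic acid to its receptors, was at 116 and 105 TPM. The list as a whole was level, with a median of 0.02, 8 ratios above 0 and 6 under it.

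Of 14 known targets of retinoic acid above the floor, 4 fell and none rose, with a median log2 ratio of -0.21 against 0.15 over all entries. TGM2, the tissue transglutaminase and a textbook retinoic acid response gene, went from 1167 to 188 TPM (log2 ratio -2.63). KRT13, a keratin of wet squamous epithelium, went from 3457 to 655 TPM (log2 ratio -2.40). With DHRS3 and FABP5 they made up the list's changes, and the summed level of the list was 5551 TPM in the control and 1386 TPM after RARγi-1. In Panc-1, which shares no library with PK-1, 3 of 13 members fell and none rose, with a median of -0.38. Over all 14004 entries above the floor in that pair of Panc-1 libraries, 7.40% rose and 6.03% fell, and the Panc-1 counts given further on are read against these shares.

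DNA replication starts when the origin recognition complex and the MCM helicase are loaded on chromatin in G1 and fired at the start of S phase. Polymerases, the sliding clamp PCNA and its loader then copy the DNA, fed by enzymes that make deoxynucleotides. These genes are largely driven by E2F transcription factors, which the retinoblastoma proteins hold back until cyclin-dependent kinases (CDKs) release them.

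Origin licensing and firing genes gave the lowest median, -1.66, of the 80 gene lists with members above the floor: of 27 above the floor, 22 fell and none rose. MCM3, a subunit of the replicative helicase, stood at 125 TPM in the control and 20.1 TPM after RARγi-1 (log2 ratio -2.58). MCM4 (101 and 15.9 TPM) and MCM2 (129.6 and 22.5 TPM) were lowered to a like extent, and so was ORC1 (37.8 and 6.29 TPM), the subunit of the origin recognition complex that is made anew in each cycle. GINS2, part of the active helicase, was at 142 and 27.5 TPM. At the fork, 25 of 36 genes fell and 1 rose, with a median of -1.51. PCNA went from 672 to 156 TPM, LIG1, which joins Okazaki fragments, from 47.5 to 9.49 TPM, and TOP2A from 243 to 54.2 TPM. POLD4, the small accessory subunit of polymerase δ, was the member that rose, from 72.8 to 223 TPM (log2 ratio 1.60). In Panc-1 the medians were -1.21 for origin licensing and -0.91 for the fork, and POLD4 had a log2 ratio of 0.05.

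Of 22 genes of deoxynucleotide supply, 12 fell and none rose, and the median was -1.09. TYMS, the thymidylate synthase that 5-fluorouracil targets, had the lowest ratio of the list at -3.24, with 231 TPM in the control and 23.6 TPM after RARγi-1. Both chains of ribonucleotide reductase, the target of gemcitabine metabolites, were lower: RRM1 stood at 260.2 and 63.5 TPM, and RRM2 at 227 and 29.9 TPM. Thymidine kinase TK1 (439.6 and 118 TPM) and the dUTPase DUT (109 and 31.3 TPM) fell as well.

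In the E2F and retinoblastoma family, 7 of 19 members fell and 1 rose. The activator E2F1 was at 68.6 and 18.1 TPM, its partner TFDP1 at 236 and 85.7 TPM, and E2F8, a repressor made in S phase, at 19.7 and 1.64 TPM. E2F4, the E2F of resting cells, was at 159.8 and 128 TPM, E2F6 at 14.1 and 21.2 TPM, and E2F7 at 17.4 and 28.9 TPM, all within 2-fold. Among the pocket proteins, RBL1 (p107), itself an E2F target, went from 17.2 to 4.71 TPM, and RB1 (33.4 and 23.0 TPM) and RBL2 (p130, 17.3 and 23.9 TPM) stayed within 2-fold. MYBL2 (63.7 and 13.1 TPM) and FOXM1 (155 and 45.5 TPM), which drive the later wave of mitotic genes, both fell.

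Among interphase cyclins and CDKs, 6 of 20 fell and none rose (median -0.67). CCNE2, a cyclin of the G1-S step, went from 27.8 to 5.24 TPM, CCNA2 from 72.2 to 20.1 TPM, and their kinase CDK2 from 160.1 to 51.6 TPM. The G1 kinases CDK4 (386 and 218 TPM) and CDK6 (28.8 and 15.2 TPM) were lower by less than 2-fold. Of 6 CDK inhibitors above the floor, 1 rose and 2 fell. CDKN1A, which encodes p21, went from 36.1 to 349.9 TPM (log2 ratio 3.24). CDKN1B, which encodes p27, was at 36.2 and 66.8 TPM (log2 ratio 0.87). CDKN3, a phosphatase of CDK2 made with the mitotic genes, fell from 71.0 to 33.0 TPM. The other that fell was CDKN2C (log2 ratio -1.56), a call lost with a pseudocount of 5 TPM.

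Mitotic genes were lower as well. Of 30 mitotic cyclins and kinases, 24 fell and none rose, with a median of -1.45. PLK1 stood at 94.9 TPM in the control and 26.5 TPM after RARγi-1, AURKB at 151 and 44.1 TPM, and the survivin gene BIRC5, a partner of AURKB, at 163 and 47.7 TPM. Centromere and kinetochore genes gave 28 that fell and none that rose of 41 (median -1.29), with ZWINT at 187 and 40.6 TPM and the checkpoint protein gene MAD2L1 at 119 and 32.1 TPM. Of 27 kinesins, the motors of the microtubules, 12 fell and none rose, and the median was -0.82. Those that fell the most act on the mitotic spindle, such as KIF11 (59.8 and 14.3 TPM) and KIF20A (46.1 and 10.7 TPM), while 12 kinesins had a ratio above 0. Of 21 condensin and cohesin genes, 10 fell and none rose (median -0.79), among them NCAPG (42.6 and 9.02 TPM), a subunit of condensin I.

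Chromatin assembly and DNA methylation maintenance gave 20 of 30 members that fell and none that rose (median -1.23). The chromatin remodeller HELLS was at 41.3 and 5.50 TPM (log2 ratio -2.70), UHRF1, which brings the maintenance methyltransferase to new DNA, at 55.2 and 10.3 TPM, and LMNB1, which encodes lamin B1 of the nuclear envelope, at 169.5 and 28.8 TPM. Genes of homologous recombination and the Fanconi pathway were lower too, with 18 of 39 that fell, none that rose (9 of 39 fell with a pseudocount of 5 TPM) and a median of -0.94, EXO1 leading at 28.5 and 4.51 TPM. Mismatch and excision repair stood closer to level (6 of 31 fell, 1 rose, median -0.16). Its lowest member was UNG, the uracil glycosylase that works behind the fork, at 184 and 38.7 TPM, and the mismatch sensor gene MSH6 (70.7 and 25.9 TPM) also fell.

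**Figure D2:**
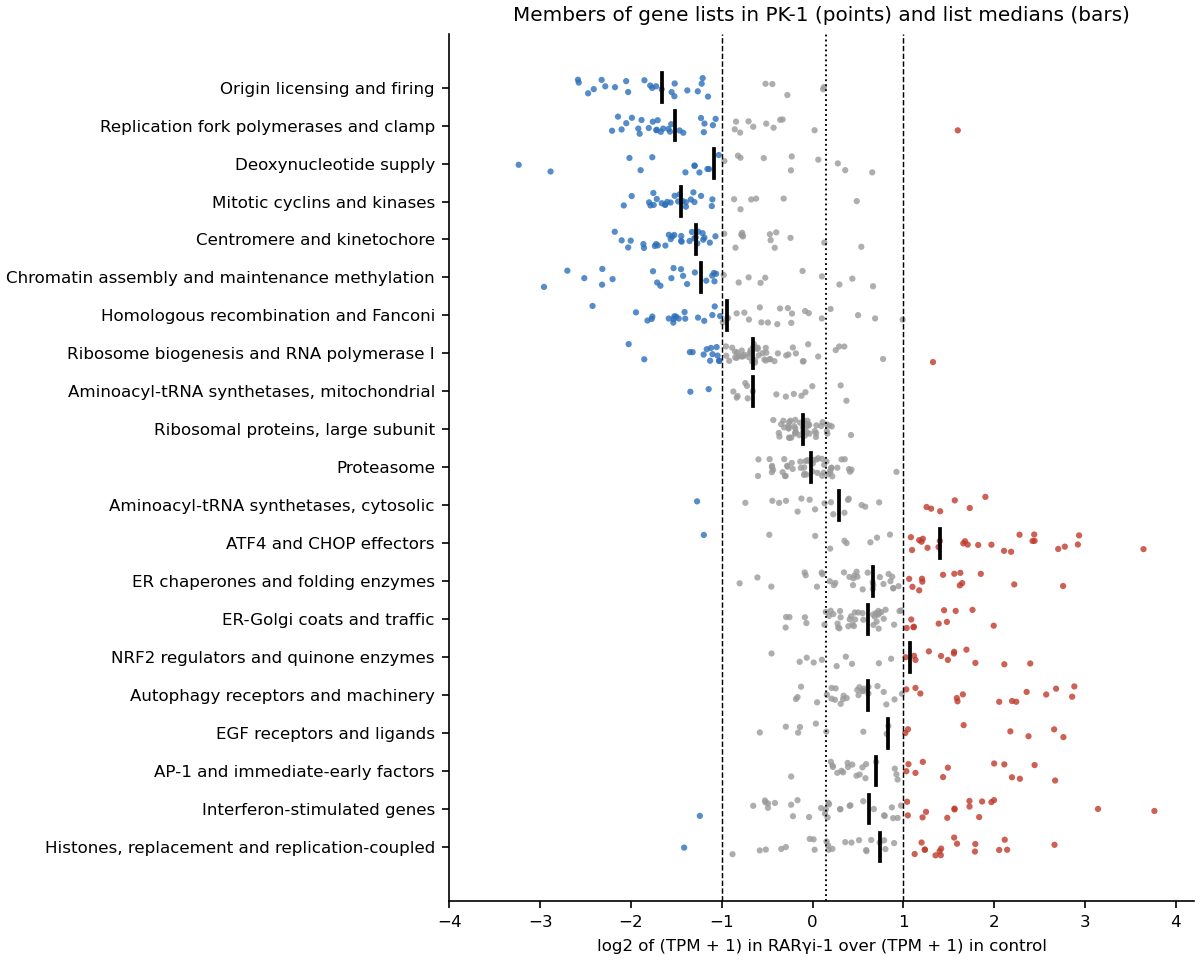
Each point is the log2 ratio of 1 gene of a list in PK-1, coloured red where it rose and blue where it fell past 2-fold (dashed lines); thick bars mark list medians and the dotted line the median of all entries, 0.15. The medians run from -1.66 for origin licensing to 1.40 for the ATF4 and CHOP effectors, with ribosomal proteins and the proteasome near 0.

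Histone entries went the other way. Of 39 above the floor, 16 rose and 1 fell, with a median of 0.74, and 32 had a ratio above 0. H2BC21 went from 5.79 to 42.1 TPM (log2 ratio 2.67), H2AC6 from 12.9 to 60.5 TPM, H2AC18 from 13.3 to 58.5 TPM, and the linker histone H1-2 from 33.5 to 119 TPM. Most of the replication-coupled entries were low in both libraries, and replication-coupled histone mRNAs as a rule end in a stem-loop and not in a poly(A) tail. The one member that fell was H2AX, which marks DNA breaks, at 268 and 99.8 TPM, and the replacement histone H2AZ1 (986 and 535 TPM) was lower by less than 2-fold. Because of the low levels the median depended on the scale: it was 1.20 with no pseudocount, 0.32 with a pseudocount of 5 TPM and 1.24 over members of at least 5 TPM. In Panc-1, 3 of 27 histone entries rose and 1 fell, with a median of 0.09.

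Promoter sequence was searched for elements known for each of several lists, those that changed and those that stayed near level. RefSeq promoter windows of GRCh38.p14, running from 250 bases before the start to 50 bases after it, were at hand for 10800 of the 13965 entries. An E2F site (TTTCCCGC, TTTCGCGC, TTTGCCGC or TTTGGCGC, on either strand) was present in 12 of 23 origin licensing promoters (52.2%) and in 9 of 30 fork promoters (30.0%), in 5 of 34 of homologous recombination (14.7%) and in 2 of 20 of deoxynucleotide supply, against 3.33% of all 27305 promoters in the table. Over the 519 entries that fell, the share was 13.3%, over the 974 that rose 3.08%, and over all 10800 it was 5.27%. The cell cycle homology region (CHR, TTTGAA on either strand), the element of late cell cycle genes, was in 13 of 21 promoters of mitotic cyclins and kinases (61.9%) and 13 of 33 centromere promoters (39.4%), against 15.4% of all promoters, 22.4% of those that fell and 8.83% of those that rose. Lists near level also held their element more often than all promoters did: the CArG box was in 6 of 30 promoters of actin and SRF targets against 1.29% of all, and the heat shock element in 5 of 37 of the cytosolic chaperones (13.5%) against 0.487%. The retinoic acid response element with a 5-base spacer (DR5) was in none of 8 promoters of retinoic acid targets, 12 of retinoid carriers, 519 of entries that fell and 974 of entries that rose. It was in 0.0806% of all promoters, too rare for a match to be looked for in sets of these sizes, so nothing is read from its absence. These matches describe letters in a window and are not evidence of binding.

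For each of 3 lists the promoter shown is that of a member with a low ratio and a match before the start. MCM4 had a slightly lower log2 ratio (-2.584) than MCM3 (-2.576), and its promoter is not shown. Those shown are the helicase subunit MCM3 (chr6:52284743-52284992, minus strand), TYMS (chr18:657403-657652, plus strand) and GTSE1 (chr22:46296620-46296869, plus strand), a microtubule-binding protein of G2 phase at 35.7 TPM in the control and 8.23 TPM after RARγi-1. The 250 bases before the start are given 5′ to 3′ on the strand of the gene, with the E2F site (MCM3 and TYMS) or the CHR (GTSE1) in capitals. The capitals begin 174 bases before the start in MCM3, 39 in TYMS and 26 in GTSE1.
MCM3: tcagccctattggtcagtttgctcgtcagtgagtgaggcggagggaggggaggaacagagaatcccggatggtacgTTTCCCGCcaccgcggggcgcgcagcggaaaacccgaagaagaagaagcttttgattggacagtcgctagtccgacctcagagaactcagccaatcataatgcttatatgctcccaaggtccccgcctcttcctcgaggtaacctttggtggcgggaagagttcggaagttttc
TYMS: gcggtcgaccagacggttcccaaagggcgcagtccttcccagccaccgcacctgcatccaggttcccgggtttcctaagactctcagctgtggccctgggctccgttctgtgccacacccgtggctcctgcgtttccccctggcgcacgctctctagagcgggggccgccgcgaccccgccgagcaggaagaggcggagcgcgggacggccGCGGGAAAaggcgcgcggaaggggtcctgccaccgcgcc
GTSE1: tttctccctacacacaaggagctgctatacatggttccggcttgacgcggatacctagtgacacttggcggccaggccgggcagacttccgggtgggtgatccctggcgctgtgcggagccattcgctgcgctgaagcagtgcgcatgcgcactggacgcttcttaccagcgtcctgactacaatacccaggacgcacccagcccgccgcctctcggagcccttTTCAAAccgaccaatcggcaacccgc

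ATF4 is a transcription factor made when the kinases of the integrated stress response, PERK among them, slow translation. It raises genes that make, import and charge amino acids, and its target CHOP (DDIT3) is a factor of prolonged stress. Alongside it, the unfolded protein response of the endoplasmic reticulum (ER) acts through ATF6 and through IRE1 (ERN1) and XBP1, and raises chaperones, glycosylation, degradation and transport out of the ER.

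The ATF4 and CHOP effectors gave the highest median of the lists, 1.40: 24 of 33 rose and 1 fell. ATF4 itself was at 472 TPM in the control and 1138 TPM after RARγi-1, and DDIT3 at 48.9 and 377 TPM (log2 ratio 2.92). CHAC1, which breaks down glutathione, went from 9.98 to 137 TPM, the asparagine synthetase ASNS from 64.2 to 425 TPM, and CTH, which makes cysteine, from 6.64 to 51.4 TPM. NUPR1, a stress-induced chromatin protein, went from the floor to 14.3 TPM. ATF5, a paralogue of ATF4, was the 1 member that fell (38.8 and 16.4 TPM). Among the sensors, ERN1 rose from 2.46 to 15.8 TPM, the PERK gene EIF2AK3 from 9.42 to 28.8 TPM and XBP1 from 136 to 387 TPM, while ATF6 was at 20.6 and 32.1 TPM, within 2-fold. Panc-1 gave 24 of 33 effectors that rose, 2 that fell and a median of 1.36.

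Of 24 cytosolic aminoacyl-tRNA synthetases, which charge tRNAs, 6 rose and 1 fell, with a median of 0.29. The risers were WARS1 (137 and 517 TPM), GARS1 (178 and 593 TPM), CARS1 (40.4 and 122 TPM), AARS1 (148 and 393 TPM), MARS1 (161 and 401 TPM) and SARS1 (70.0 and 169 TPM), and FARSB fell (82.1 and 33.4 TPM). Of 17 mitochondrial synthetases none rose, 2 fell and 15 had a ratio under 0, with a median of -0.66, LARS2 standing at 21.2 and 7.72 TPM. In Panc-1 the medians were 0.35 for the cytosolic and -0.09 for the mitochondrial list. Transporters were mostly level, with 4 of 22 that rose and 1 that fell: SLC7A11, the cystine importer, was at 21.9 and 129.9 TPM, SLC6A9, a glycine carrier, at 8.35 and 49.1 TPM, and the glutamate carrier SLC1A3 fell from 23.7 to 7.53 TPM. One-carbon genes went both ways, with 4 of 23 in each direction. The mitochondrial MTHFD2 rose from 199 to 483 TPM and the serine enzyme PSAT1 from 29.8 to 113 TPM, whereas the cytosolic MTHFD1 fell from 190.1 to 44.1 TPM and SHMT1 from 71.1 to 18.4 TPM. The opposite course of MTHFD1 and MTHFD2 was also seen in Panc-1, at log2 ratios of -1.14 and 1.18.

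In the ER itself no list had a member that fell. Of 44 chaperones and folding enzymes 13 rose (median 0.67), of 34 genes of ER-associated degradation 7 (median 0.46), of 56 genes of translocation and N-glycosylation 8 (median 0.47), and of 50 genes of transport between the ER and the Golgi 10 (median 0.61). HSPA5, the main chaperone of the ER (BiP), was at 532 TPM in the control and 2487 TPM after RARγi-1, and its cochaperone DNAJB9 at 10.6 and 77.3 TPM. HERPUD1, a scaffold of the degradation complex, rose from 64.4 to 331 TPM, and EDEM1, which directs misfolded glycoproteins there, from 29.6 to 97.5 TPM. GFPT1, the first enzyme of the hexosamine pathway, went from 29.7 to 166 TPM (log2 ratio 2.44), the COPII coat gene SEC24D from 26.1 to 107 TPM, and the COPI coat gene COPG1 from 125 to 344 TPM. The calcium-binding chaperone CALR (657 and 871 TPM) and PDIA3 (619 and 1037 TPM) stayed within 2-fold. Chaperones of the cytosol did not share this course: 5 of 42 rose and none fell, with a median of -0.13. HSPA13, a microsomal member of that list (27.7 and 77.9 TPM), and DNAJB2 (21.2 and 60.3 TPM) had the highest ratios there. The calls of HSPA1A (347 and 753 TPM), HSPA1B (93.3 and 193 TPM) and HSPA6 (2.60 and 8.44 TPM) were lost under another pseudocount or the rescaling.

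The promoters of these lists were searched for the elements named after these responses. The C/EBP-ATF response element (CARE, TGATGNAA on either strand) was in 5 of 28 promoters of ATF4 and CHOP effectors (17.9%), 6 of 19 of cytosolic synthetases (31.6%) and 4 of 20 of amino acid transporters, against 3.67% of all promoters, 3.29% of the entries that rose and 1.78% of all entries with a promoter. The ER stress response element (ERSE, in its exact spacing) was in 6 of 40 promoters of ER chaperones, against 22 of 27305 in the table (0.0806%) and in none of the 24 promoters of ER-associated degradation. Every ERSE begins with a CCAAT box, and CCAAT alone was in 77.5% of the chaperone promoters against 35.7% of all. The promoters of CHAC1 (chr15:40953221-40953470, plus strand), AARS1 (chr16:70289507-70289756, minus strand) and HSPA5 (chr9:125241344-125241593, minus strand) are shown as members with a high ratio and a match before the start. Capitals mark the CARE, which lies on the opposite strand in both CHAC1 and AARS1, and the ERSE in HSPA5. They begin 209, 187 and 66 bases before the start.
CHAC1: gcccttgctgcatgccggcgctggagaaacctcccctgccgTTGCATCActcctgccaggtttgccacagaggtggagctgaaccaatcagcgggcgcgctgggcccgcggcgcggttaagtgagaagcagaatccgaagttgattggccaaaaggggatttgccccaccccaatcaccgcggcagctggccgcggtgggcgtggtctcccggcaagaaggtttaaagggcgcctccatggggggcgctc
AARS1: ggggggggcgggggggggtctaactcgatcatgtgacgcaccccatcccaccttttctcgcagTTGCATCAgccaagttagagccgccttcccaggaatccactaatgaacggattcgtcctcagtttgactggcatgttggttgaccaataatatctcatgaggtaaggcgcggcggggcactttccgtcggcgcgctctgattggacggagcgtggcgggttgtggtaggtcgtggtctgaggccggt
HSPA5: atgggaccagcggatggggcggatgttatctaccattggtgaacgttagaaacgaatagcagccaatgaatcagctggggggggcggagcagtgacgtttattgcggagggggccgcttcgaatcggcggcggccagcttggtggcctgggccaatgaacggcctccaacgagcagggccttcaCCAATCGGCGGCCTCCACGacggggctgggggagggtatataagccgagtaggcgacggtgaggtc

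**Figure D3:**
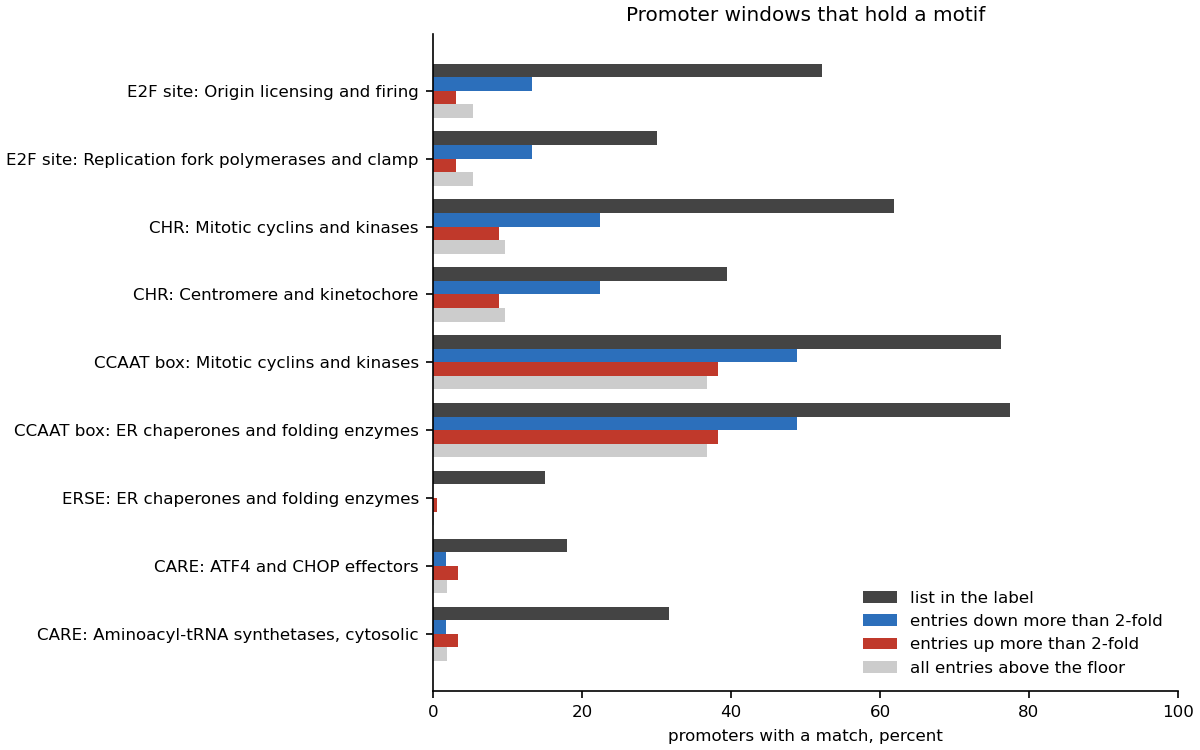
Bars give the percent of RefSeq promoter windows that hold a motif, for the list named at the left (dark), for entries that fell (blue), for entries that rose (red) and for all entries above the floor with a promoter (grey). The E2F site is in 52.2% of origin licensing promoters and the CHR in 61.9% of those of mitotic cyclins and kinases, against 5.27% and 9.65% of all entries.

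NRF2 (NFE2L2) is the factor that raises glutathione, thioredoxin and quinone-handling enzymes when its inhibitor KEAP1 is modified by electrophiles. Of 22 regulators and quinone enzymes 12 rose and none fell, and the median of 1.07 was the second highest of all lists, against 0.50 for 23 genes in Panc-1. NFE2L2 itself was level at 92.0 and 119 TPM, and its related factor NFE2L1 rose from 141 to 418 TPM. OSGIN1 went from 44.3 to 238 TPM, the small Maf partner MAFF from 19.4 to 87.4 TPM and the prostaglandin reductase PTGR1 from 64.8 to 227 TPM, whereas NQO1, the standard reporter of the pathway, was at 564 and 762 TPM, within 2-fold. Glutathione genes gave 7 of 31 that rose and 1 that fell, with GCLC, the catalytic subunit of its first step, at 54.5 and 173 TPM. The highest ratio among them was that of CHAC1, which breaks glutathione down and is also counted in the ATF4 list. The list of thioredoxin, peroxiredoxin and NADPH genes was split, with 7 of 32 that rose and 2 that fell. Its risers include SESN2 and SQSTM1, which are counted in other lists as well. GLRX (16.8 and 189 TPM) and the sulfiredoxin SRXN1 (54.3 and 198 TPM) rose. Both that fell were peroxiredoxins. The mitochondrial PRDX3 went from 450.02 to 215 TPM, and PRDX2 had a log2 ratio of -1.02, a call lost with a pseudocount of 5 TPM. The antioxidant response element core (ARE, TGACNNNGC on either strand) was in 4 of 19 promoters of the NRF2 list (21.1%), 5 of 22 of the glutathione list (22.7%) and 3 of 27 of the thioredoxin list (11.1%). It was in 18.99% of the entries that rose, 15.4% of all entries with a promoter and 13.6% of all promoters.

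A trio of neighbouring aldo-keto reductases, which reduce steroids and reactive aldehydes, rose: AKR1C1 from 45.1 to 771 TPM, AKR1C2 from 39.1 to 216 TPM and AKR1C3 from 119 to 290.2 TPM. AKR1B10, another known NRF2 target, was at 4.41 and 3.13 TPM. In Panc-1 AKR1C1 was at the floor in the control and 1.21 TPM after RARγi-1. Iron handling had 5 of 32 genes that rose and 1 that fell, but it held the largest gains in TPM of the whole comparison. The ferritin chains FTH1 (2516 TPM in the control, 14200.3 TPM after RARγi-1) and FTL (2546 and 10971 TPM) store iron, and the summed level of the list was 7237 and 28416 TPM. TFRC, which takes up iron, fell from 187 to 80.8 TPM, while HMOX1, which frees iron from heme, rose from 17.8 to 142 TPM and LCN2, which binds iron carriers, from 158 to 803 TPM. Ferritin and the transferrin receptor thus moved in opposite directions in PK-1, and in Panc-1 their log2 ratios were 2.92 for FTH1, 2.13 for FTL and 0.32 for TFRC.

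Of 62 genes of ribosome biogenesis and RNA polymerase I 13 fell and 1 rose, 56 had a ratio under 0, and the median was -0.66, against -0.19 in Panc-1. POLR1G, a subunit of RNA polymerase I, went from 37.2 to 8.38 TPM, UTP20, which processes the small subunit, from 22.6 to 5.53 TPM, and NOP56, which guides rRNA methylation, from 492 to 219 TPM. None of the 47 large and 34 small ribosomal protein genes moved past 2-fold (medians -0.10 and -0.11), RPS2 having one of the larger differences at 8225 and 4728 TPM. None of 48 proteasome genes, 40 translation initiation factors or 77 nuclear genes of the respiratory chain did so either, with medians of -0.01, -0.03 and -0.29. Of 77 mitochondrial ribosomal proteins 2 fell, with 66 ratios under 0 and a median of -0.27. Of 41 splicing factors 3 fell and 1 rose, beside 4.96% of all entries that fell (median -0.36), SRSF2 standing at 306 and 132 TPM.

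Autophagy genes, which build and load the vesicles that carry cell contents to the lysosome, gave 14 of 40 that rose and none that fell (median 0.62). MAP1LC3B, the membrane mark of these vesicles, was at 50.3 TPM in the control and 371 TPM after RARγi-1, the cargo receptor SQSTM1 at 398 and 1831 TPM, the starting kinase ULK1 at 10.9 and 70.0 TPM, and WIPI1, an early membrane factor, at 15.2 and 118 TPM. Lysosomal enzymes did not follow as a group, with 7 of 44 that rose, 4 that fell and a median of 0.02. CTSL rose from 212 to 814 TPM, and CTSH fell from 631 to 160.3 TPM. Of 20 subunits of the lysosomal proton pump, only ATP6V0D2 passed 2-fold, from the floor to 20.7 TPM.

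Growth factor ligands and immediate-early genes were higher. The EGF receptor family and its ligands gave 7 of 16 that rose and none that fell (median 0.83), and their summed level was 996 TPM in the control and 3934 TPM after RARγi-1. Amphiregulin (AREG), at 397 and 2517 TPM, made up most of the sum in the treated library, beside HBEGF (74.9 and 394 TPM), EREG (49.2 and 158 TPM) and EPGN (9.81 and 72.4 TPM). ERRFI1, a feedback inhibitor of the receptor, rose with them (73.3 and 336 TPM). Of 31 AP-1 and immediate-early factors 12 rose and none fell (median 0.70), including EGR1 (8.81 and 61.5 TPM), KLF4 (33.8 and 158 TPM) and IER3 (136 and 669 TPM). Feedback and output genes of the MAPK pathway gave 9 of 27 that rose and none that fell, with the ERK phosphatase gene DUSP5 at 97.8 and 409.6 TPM, while the ERK1 gene MAPK3 (33.4 and 43.2 TPM) was level.

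Among 34 known p53 targets 11 rose and 1 fell (median 0.55). After CDKN1A, the highest ratios were those of BBC3, which encodes the death-promoting protein PUMA (3.39 and 27.4 TPM), and SESN2 (17.8 and 100.1 TPM), and the list shares SESN2 with the ATF4 list. Of 36 genes of the BCL2 family and death receptors 5 rose and 1 fell, with a median of 0.25. Interferon-stimulated genes gave 15 of 44 that rose and 1 that fell (median 0.62), against 3 and 2 of 34 and a median of 0.26 in Panc-1. OASL went from 12.9 to 122 TPM, the exonuclease gene ISG20 from 4.95 to 80.0 TPM, ISG15 from 207 to 758 TPM and the regulator IRF7 from 5.20 to 21.1 TPM. Genes of MHC class I presentation were nearly level, with 2 of 28 that rose, 1 that fell and B2M at 2233 and 2144 TPM. NF-κB chemokines and cytokines gave 8 of 31 that rose and none that fell (median 0.47), with IL11 at 1.44 and 15.9 TPM, CSF2 at 4.17 and 26.0 TPM and CXCL2 at 2.96 and 23.1 TPM, and in Panc-1 3 of 30 rose and 7 fell (median -0.29). The difference between the lines was not tested.

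Keratins are the intermediate filaments of epithelia. KRT8 and KRT18 are the pair of simple epithelium, KRT5 and KRT14 that of basal squamous cells, KRT4 and KRT13 that of inner wet squamous lining such as the esophagus, and KRT6, KRT16 and KRT17 appear on wounding. In PK-1 all these sets were found, and 3 of 18 keratins rose and 5 fell. KRT4 went from 21.8 TPM to the floor and KRT13 from 3457 to 655 TPM. KRT5 fell from 1591 to 518 TPM, and its partner KRT14 was low in both libraries at 3.40 and 8.43 TPM, a rise that was lost with a pseudocount of 5 TPM. The simple keratin KRT7 fell from 5663 to 2297 TPM, KRT8 (5967 and 3149.5 TPM) and KRT18 (6408 and 3792 TPM) were lower by less than 2-fold, and KRT19 was level at 3711 and 3446 TPM. KRT16 went from 3.37 to 84.2 TPM (log2 ratio 4.29), KRT17 from 487 to 1585 TPM, and KRT6A was within 2-fold at 67.1 and 118 TPM, as were KRT6B (2.79 and 3.61 TPM) and KRT6C (1.28 and 1.91 TPM). Over all keratins the summed level was 27829 TPM in the control and 16043 TPM after RARγi-1. Panc-1 had 9 keratins above the floor, of which 5 fell and none rose.

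**Figure D4:**
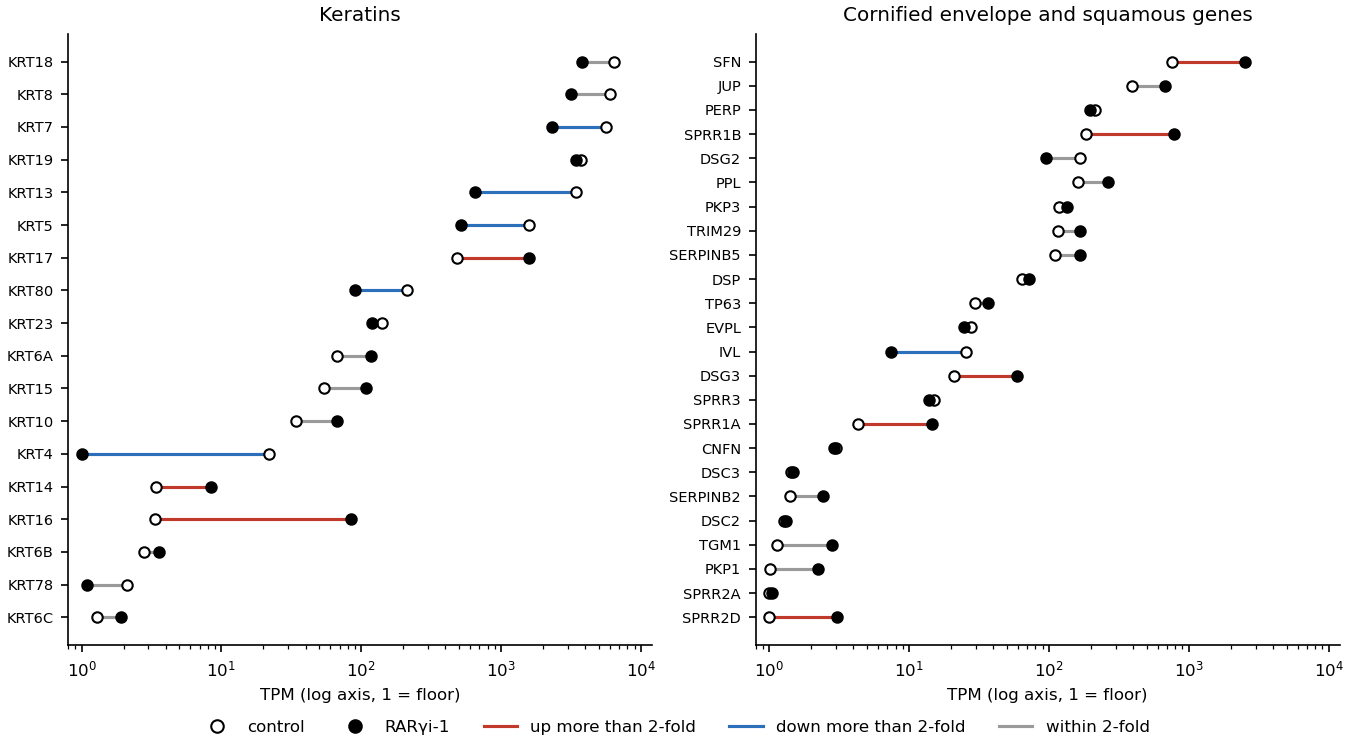
Lines join the TPM of each gene in the PK-1 control (open circles) and RARγi-1 (filled circles) libraries on a logarithmic axis, for 18 keratins and 24 cornified envelope and squamous genes, ordered by the control level. KRT4 and KRT13 moved left, KRT16 and KRT17 moved right, and SPRR1B (183 and 789 TPM) rose in the right panel.

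The list of cornified envelope and squamous genes did not as a whole move with KRT4 and KRT13. Of its 24 members above the floor 5 rose and 1 fell (median 0.40), whereas in Panc-1 1 of 10 rose and 4 fell (median -0.64). The cross-linked envelope proteins SPRR1B (183 and 789 TPM) and SPRR1A (4.30 and 14.6 TPM) rose, as did the cell adhesion gene DSG3 (20.8 and 59.5 TPM) and SFN (755 and 2506 TPM), which is also a p53 target. IVL, which encodes involucrin of the same envelope, fell from 25.6 to 7.48 TPM. TP63, the master factor of squamous cells, was level at 29.7 and 36.5 TPM. Kallikreins, the proteases of the outer skin layers, had 2 of 10 that fell and none that rose, KLK6 going from 759 to 339 TPM and KLK10 from 52.6 to 16.1 TPM.

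AGR2, a disulfide isomerase of mucus-secreting cells, went from 445 to 3927 TPM (log2 ratio 3.14). Together with LCN2, LYPD3 (64.8 and 196 TPM), CEACAM5 (1.49 and 8.63 TPM) and CEACAM1 (15.1 and 32.9 TPM, a call lost with a pseudocount of 5 TPM) it accounted for the 5 of 15 mucin, CEACAM and related genes that rose, and MUC20 fell (58.1 and 26.0 TPM). Among 13 entries of the S100 list 4 rose and none fell. S100P, a calcium-binding protein of pancreatic cancer, had the highest ratio of the whole comparison at 5.43, with 12.9 TPM in the control and 598 TPM after RARγi-1, S100A6 was at 1533 and 3602 TPM and S100A14 at 252 and 681 TPM. All 7 claudins above the floor had a ratio above 0, and 1 of them, CLDN12 (22.7 and 71.2 TPM), rose. Most entries of the whole comparison also lay above 0, with 39.2% under it. Epithelial and mesenchymal markers gave 6 of 33 that rose and none that fell, of both kinds: the tight junction gene OCLN was at 13.7 and 36.6 TPM, and VIM at 41.7 and 92.1 TPM.

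In the matrix, 2 of 13 collagens rose and 3 fell, with COL12A1 at 35.8 and 4.85 TPM and COL4A2 at 21.9 and 6.96 TPM. Of 21 matrix proteases and plasminogen genes 7 rose and 2 fell. The collagenase MMP1 went from 37.7 to 362 TPM, MMP10 from 2.81 to 21.2 TPM and the urokinase receptor PLAUR from 44.8 to 169 TPM. The urokinase gene PLAU rose from 315 to 754 TPM while the other plasminogen activator, PLAT, fell from 133 to 29.9 TPM, so the activators of the pathway moved apart. YAP and TEAD targets had 5 of 28 that fell and none that rose (median -0.32), F3, which encodes tissue factor, going from 468 to 119.7 TPM. The TGF-β response went both ways, with 5 of 39 that rose and 4 that fell, from TGFBI at 651 and 108 TPM to the receptor gene ACVR1 at 12.6 and 31.1 TPM. Of 34 WNT and Notch genes 4 fell and 1 rose, with the WNT antagonist DKK1 at 234 and 50.1 TPM. Actin and SRF targets were nearly level (1 of 34 rose and 2 fell, ACTB at 6268 and 5702 TPM), whereas in Panc-1 13 of 35 fell.

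The metabolic lists that follow had medians from -0.01 to 0.32. Of 42 genes of glycolysis and the hypoxia response 8 rose and 1 fell (median 0.32), with NDRG1 at 34.1 and 384 TPM and VEGFA at 42.6 and 274 TPM, while GAPDH was at 8194 and 5982 TPM. In fatty acid metabolism 5 of 35 rose and 3 fell. PLIN2, which coats lipid droplets, went from 46.1 to 443 TPM, and the fatty acid synthase FASN fell from 84.2 to 36.4 TPM. Cholesterol genes were level (2 of 32 fell, none rose, median -0.01). Among P450, UGT and aldehyde dehydrogenase genes 4 of 27 rose and 5 fell. CYP24A1, which breaks down vitamin D, fell from 41.6 to 2.96 TPM (log2 ratio -3.43), and CYP4F11 rose from 1.92 to 22.0 TPM.

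The remaining lists held few calls or calls in both directions. Of 17 tubulin and stathmin entries 2 rose and 3 fell: the abundant TUBA1B (3967 and 1666 TPM) and TUBB (1033 and 429 TPM) were lower, and TUBA1A (29.8 and 85.7 TPM) was higher. Among 31 snoRNA host genes and long noncoding RNAs 4 rose and 1 fell, with the snoRNA host GAS5 at 321 and 721 TPM and NEAT1, the scaffold of paraspeckles, at 16.5 and 57.0 TPM. Of 21 metallothionein and zinc transporter entries 3 rose and 2 fell, MT1X standing at 237 and 571 TPM. Mitochondrial chaperones and proteases gave 1 of 16 that rose and 2 that fell, the latter being TRAP1 (276 and 127 TPM) and PHB1 (370.3 and 172 TPM). Targets of the aryl hydrocarbon receptor had 3 of 14 that rose, ABC transporters 3 of 26 with 1 that fell, connexins 2 of 9, and integrins and laminins 1 of 18. In the list of pancreatic lineage and cancer driver genes 1 of 19 rose and 2 fell. The mRNAs of the mitochondrial genome were represented by 1 entry of 13, which was at the floor.

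Families were also formed without chosen lists, from the letters of gene symbols before the first number. There were 185 such families with at least 8 entries of at least 5 TPM in 1 of the 2 libraries, and among all entries at that level 10.5% rose and 5.78% fell. The MCM family was lowest, with 8 of 9 that fell, followed by the kinesins (KIF, 10 of 22), with no member that rose in either. Families not covered above were the nucleoporins (NUP, 5 of 21 fell, median -0.67), which form the nuclear pore, the augmin subunits of the spindle (HAUS, 2 of 8) and RNA polymerase subunits (POLR, 6 of 33). At the other end of the order by share stood the HSPA chaperones (5 of 11 rose), golgins (GOLGA, 4 of 10), dual-specificity phosphatases (DUSP, 5 of 13), Krüppel-like factors (KLF, 3 of 8), interferon regulatory factors (IRF, 3 of 10) and lysine demethylases (KDM, 4 of 15), with none that fell in any of these. Their medians, in that order, were 0.13, 0.95, 0.33, 0.77, 0.55 and 0.7, against 0.14 over all entries at that level. The HSPA family thus did not rise as a whole, and its calls for HSPA1A, HSPA1B and HSPA6 were lost under another pseudocount or the rescaling. The shared letters do not always mean a shared function, as in the SH family (7 of 25 rose), whose members share only an SH domain in their names.

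Among entries of at least 10 TPM, beside S100P, KRT16, AKR1C1, ISG20 and CHAC1, the 12 highest ratios were those of IGFBP1, an insulin-like growth factor binding protein (5.65 and 124 TPM), KLHDC7B (log2 ratio 4.23, to 45.6 TPM), the peptide hormone gene ADM2 (2.44 and 63.5 TPM), TMEM45B (5.96 and 111 TPM), TCIM (8.23 and 115 TPM), the long noncoding RNA LUCAT1 (4.65 and 69.3 TPM) and BCL2L2-PABPN1. The last is a readthrough of adjacent genes, listed at the floor in the control and at 66.4 TPM after RARγi-1. It shares sequence with BCL2L2 (33.9 and 74.2 TPM) and PABPN1 (102 and 57.2 TPM), so the division of reads among the 3 entries is uncertain. Beside KRT4, CYP24A1, TYMS, E2F8, RRM2, HELLS and COL12A1, the 12 lowest included the muscle ankyrin repeat gene ANKRD2 (17.4 TPM and the floor), ZNF488 (25.2 and 2.06 TPM), the imprinted gene MEST (28.2 and 2.61 TPM), the S phase protease gene FAM111B (46.1 and 5.05 TPM) and the orphan receptor GPRC5B (41.0 and 5.31 TPM).

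**Figure D5:**
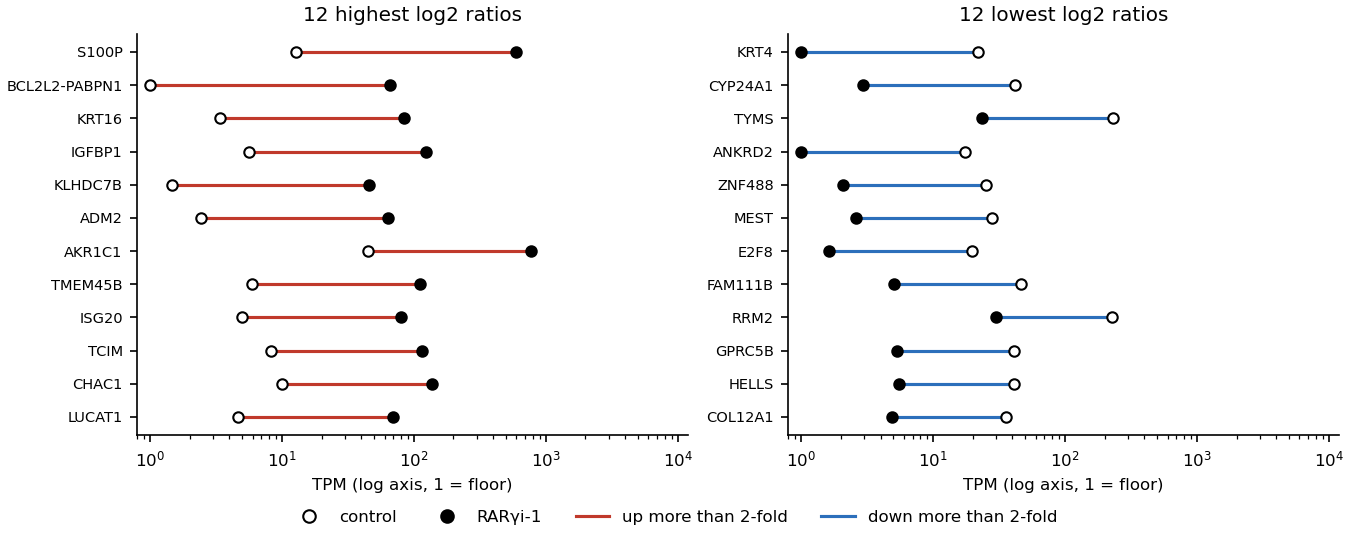
TPM in the PK-1 control (open circles) and RARγi-1 (filled circles) libraries, on a logarithmic axis, for the 12 entries with the highest (left) and the 12 with the lowest (right) log2 ratio among entries of at least 10 TPM in 1 of the libraries. S100P went from 12.9 to 598 TPM, and KRT4 and ANKRD2 reached the floor in the treated library.

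The highest entry of the control library was MIR6723 at 52172 TPM, and it stood at 17391 TPM after RARγi-1, with MIR4461 at 12373 and 6311 TPM. Since TPM values of a library share one total, a loss of this size adds a little to the values of the other entries. Its part in the other ratios was not tested. The pseudogene entries MTRNR2L2 (8968 and 8686 TPM) and MTRNR2L8 (4974 and 4721 TPM) were also among the highest of the control library. The libraries were made from mRNA. Whether the reads of MIR6723 and MIR4461 came from the microRNAs they are named after was not tested, so no change of a microRNA is read from them.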

How the data were processed

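Total RNA of 6 cultures, 1 per condition, was sequenced as strand-specific mRNA libraries. The authors deposited log2 values of TPM for each library, and no value lies under 0, so that 1 TPM and anything lower share one value. The labels name the hg38 build. The aligner, the counting method and the annotation are not given in the sources used here.

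The deposited log2 values were put back to TPM, and log2 ratios were taken with a pseudocount of 1 TPM for PK-1 RARγi-1 over PK-1 control. No test was run, as there was 1 library per group. Of the Entrez IDs, 95.1% matched the RefSeq table of GRCh38.p14, used for names and promoters. The spread is the median absolute deviation of the RARγi-1 to RARγi-2 difference, scaled to a standard deviation. The 81 gene lists, which overlap, and the motifs were chosen with earlier results of these data known. Named genes were the 12 highest and 12 lowest ratios of at least 10 TPM, in each list up to 6 members per direction past 2-fold of at least 5 TPM (with fewer than 3, those of the highest mean), up to 3 per symbol family, the 12 highest control entries and genes the study names; other list members named (E2F4, E2F6, E2F7, RB1, RBL2, H2AZ1, TP63, AKR1B10, KRT6B, KRT6C) and PABPN1 were chosen after their values were seen. Alternatives were another pseudocount, rescaling, filters and fold thresholds. Calculations used Python 3.11.15, pandas 2.3.3 and numpy 2.4.6, and were tested on simulated data. Some members of the lists are not reported here.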

Additional observations from a re-analysis of the deposited data

Results flagged for a closer look

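Genes were singled out where the log2 ratio passed 2-fold with RARγi-1 in PK-1 and passed it in the opposite direction in Panc-1. With 1 library per group the difference between the lines was not tested, and the rule for a sample far from its group could not be applied. The mucus gene AGR2 had a log2 ratio of 3.14 in PK-1 (445 TPM in the control and 3927 TPM after RARγi-1) and -2.48 in Panc-1 (208 and 36.4 TPM). The collagen gene COL1A1 had 1.57 in PK-1 (3.21 and 11.5 TPM) and -3.24 in Panc-1 (52.4 and 4.65 TPM), and COL7A1, which anchors epithelium to its matrix, had 1.27 (7.69 and 19.98 TPM) and -1.62 (24.3 and 7.19 TPM). For CYP1B1, an enzyme of the aryl hydrocarbon response, the ratios were 2.17 (3.44 and 18.99 TPM) and -1.20 (60.2 and 25.6 TPM). ANGPTL4, a lipase inhibitor, had 1.14 (24.97 and 56.1 TPM) and -1.56 (129 and 43.0 TPM), and S100A3 had 1.14 (15.8 and 36.1 TPM) and -1.41 (30.7 and 10.98 TPM). The calls of COL7A1 and S100A3 in PK-1 were lost with a pseudocount of 5 TPM.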

How the results depend on the processing

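The counts of 1292 entries up and 692 down became 691 and 433 with a pseudocount of 5 TPM, 375 and 208 past 3-fold, and 3152 and 1687 past 1.5-fold. They stayed within 1.5 times with no pseudocount (1774 and 888), after rescaling (1014 and 838), over entries of at least 5 TPM (1160 and 639), above the floor in both libraries (1182 and 655) and with 1 entry per symbol (1292 and 692). Of 80 list medians, none past 2-fold changed sign. The medians that moved by more than 0.397, the spread of a single entry and thus a wide limit for a median, were these. With no pseudocount, histones moved to 1.20. With a pseudocount of 5 TPM, histones moved to 0.32, kinesins to -0.42 and mucins to 0.31. Over members of at least 5 TPM, histones moved to 1.24, retinoid receptors to -0.07, kallikreins to -1.16 and aldo-keto reductases to 0.80; above the floor in both, kallikreins moved to -0.92. After rescaling, 5 medians near 0 changed sign, and so did 3 over members of at least 5 TPM (retinoid receptors, tubulins from 0.01 to -0.03, and P450, UGT and aldehyde dehydrogenases from 0.20 to -0.11). List counts of at least 4 also moved by over 1.5 times. With a pseudocount of 5 TPM, those that rose became 9 for histones, 2 for one-carbon genes, 5 for glycolysis and hypoxia, 3 for fatty acids, 3 for epithelial and mesenchymal markers and 2 for Krüppel-like factors. Those that fell became 9 for homologous recombination, 3 for YAP and TEAD targets, 2 for TGF-β and 2 for WNT and Notch. After rescaling, 3 rose in each of cytosolic chaperones, fatty acids, TGF-β and the BCL2 family, and with no pseudocount 8 mucin and related genes rose. Of 363 named genes past 2-fold, 42 lost that call with the larger pseudocount and 18 after rescaling, and none reversed. No paired analysis was possible because the PK-1 groups hold 1 library each and share no replicate number. Without replicates or read depth, low entries are the least certain.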
